A study of Zea mays with 45 samples.

Results

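Cacahuacintle, a Mexican highland landrace of maize (Zea mays) grown for its large floury kernels, was compared with W23, an inbred line, on 4 two-colour cDNA arrays. These are 4 of the 45 arrays of the series and 4 of the 12 arrays of the table that sets Arrocillo, Cacahuacintle and Conico against W23, and they were chosen by their titles. Each array carried total RNA from leaves of the landrace in one channel and total RNA from leaves of W23, kept under the same treatment, in the other. One array is titled +UV-B, which the labels explain as supplementary UV-B, and 3 are titled -UV-B, which they explain as no UV-B. The +UV-B array had the landrace in channel 2 and the stock W23 b,pl in channel 1. The first -UV-B array had the landrace in channel 1 and W23 in channel 2, the second had the same stocks in the opposite channels, and the third had the landrace in channel 1 and W23 b,pl in channel 2. The -UV-B arrays are numbered here in accession order, which pairs nothing. The other 2 landraces on this table have 2 arrays of each treatment, so 1 of the Cacahuacintle titles may be wrong, and the titles were taken as they stand. The b1 and pl1 genes, which the stock's name refers to, encode regulators of anthocyanin pigment. No label says whether the arrays hold RNA of separate plants, so the p-values measure the spread between arrays. That spread was pooled over all 12 arrays of the table, including those of Arrocillo and Conico. The arrays are unequal in spread. Their SD over probes was 0.392 to 0.531 for Cacahuacintle, 0.375 to 0.466 for Arrocillo and 0.296 to 0.325 for Conico. A leaf sample of this kind is bulk tissue, in which fewer cells of a type and less RNA per cell cannot be told apart.

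Maize is a C4 plant. Its mesophyll cells fix carbon into four-carbon acids that are broken down in the bundle sheath, where Rubisco works, and the sugar made there is exported as sucrose or held as starch. UV-B damages DNA and the photosynthetic machinery, and plants answer it with flavonoids and other phenolic sunscreens, with DNA repair and with antioxidant enzymes. Wound responses and some pathogen responses run through jasmonate, and they overlap with the UV-B response.

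A value here is the deposited log2 ratio of a spot, averaged over the 3 spots of a probe and reduced by the array's median. It is a ratio within an array and holds no level, so whether the defining transcripts of leaf are present could not be checked. Neither the labels nor the table says which RNA is on top of the ratio, or whether the ratios were turned to the same line on every array. So a value is only called positive or negative as deposited, and nothing is said of which line held more of a transcript. A difference between the lines keeps its sign over both channel orders where the ratios were turned to one line, and changes sign between them where the ratios follow the channels. In the second reading the mean over both orders would hold differences between the channels that a probe shows whichever RNA it meets. So 2 quantities are given for a probe, the mean over the 4 arrays and the channel-order part, which is 0.5 times the mean of the arrays with the landrace in channel 2 minus that of the arrays with it in channel 1.

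Before centring, the medians of the 4 arrays were -0.212, 0.054, -0.184 and 0.141 on the +UV-B array and the first, the second and the third -UV-B arrays. Over all 12 arrays of the table the medians ran from -0.048 to 0.334 with the landrace in channel 1 and from -0.374 to 0.033 with it in channel 2. The 4 arrays had 4.3% to 4.9% of spots blank and measured 5520 to 5562 of 5760 probes. The median SD among the 3 spots of a probe was 0.05. Only 404 probes, of 329 genes, have 1 gene in the platform annotation used here, and 5354 have no name in it.

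Across the probes, the pair of arrays that share the order with the landrace in channel 2 correlated at r = 0.40 (the +UV-B array and the second -UV-B array), and the pair with the landrace in channel 1 at r = 0.70. Pairs of opposite order gave 0.19, 0.36, 0.00 and 0.25. These correlations describe probes of shared arrays, and probes are not independent replicates. After centring each of 16 sections of the array, which held 6.2% to 15.8% of the variance, the same-order pairs gave 0.48 and 0.66 and the opposite-order pairs 0.11 to 0.38. Over the 5269 probes measured on all 4 arrays, the mean over both orders had an SD of 0.311 and the channel-order part an SD of 0.242. The mean was the larger of the 2 quantities in size in 2770 probes, or 52.6%.

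**Figure D1:**
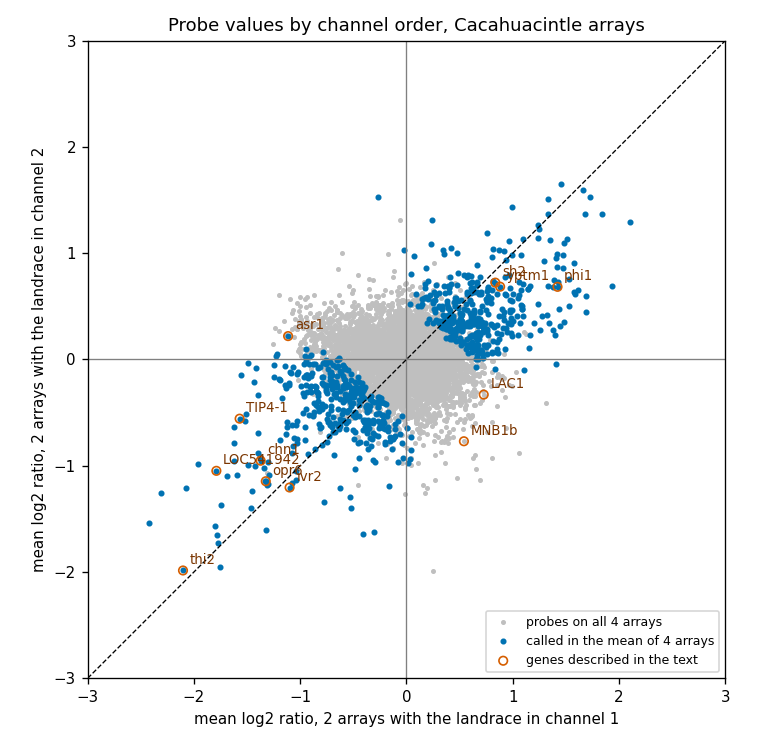
Mean log2 ratio of each probe on the 2 Cacahuacintle arrays with the landrace in channel 1 (horizontal axis) and on the 2 with it in channel 2 (vertical axis). Grey points are probes on all 4 arrays, blue points those called in the mean of 4 arrays, and the dashed line marks equal values. thi2 lies at -2.10 and -1.99, while asr1 at -1.11 and 0.22 changes side between them.

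The mean over the 4 arrays departed from 0 at many probes. At a Benjamini-Hochberg adjusted p under 0.05 in limma, 756 of the 5385 probes tested were called, which is 14.0%. Of these, 381 (7.08%) lay on the positive side and 375 (6.96%) on the negative side. Without centring the arrays, 518 probes were called and 37.3% of them were positive, against 50.4% with centring. Among the called probes, 631 had every measured array on 1 side, 397 had a mean past 0.5 in size, and 80 had a mean past 1, of which 38 were positive and 42 negative. All 4 arrays lay on 1 side in 1377 of the 5269 probes measured on all of them, or 26.1%. Of 310 named genes tested, 53 were called by their probe with the smallest p, 19 on the positive side and 34 on the negative side. These are 17.1% of the named genes. With the probes of a gene averaged instead, 44 were called and 12 of them were positive. The share of positive genes was 35.8%, and 21.6% of 37 called genes without centring. The count of called probes was 444 without the +UV-B array, 465 without the first -UV-B array, 742 without the second and 388 without the third, and that of named genes was 28, 29, 45 and 27. A reading of the ratios as following the channel order was added after the data were seen. It called 555 of all 5385 probes in the channel-order part, and 59 of the 756 probes called in the mean. The sign of the channel-order part is a convention here: 11 of the 59 have the same sign as the mean when it is taken as channel 2 minus channel 1, and 48 when it is turned.

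**Figure D2:**
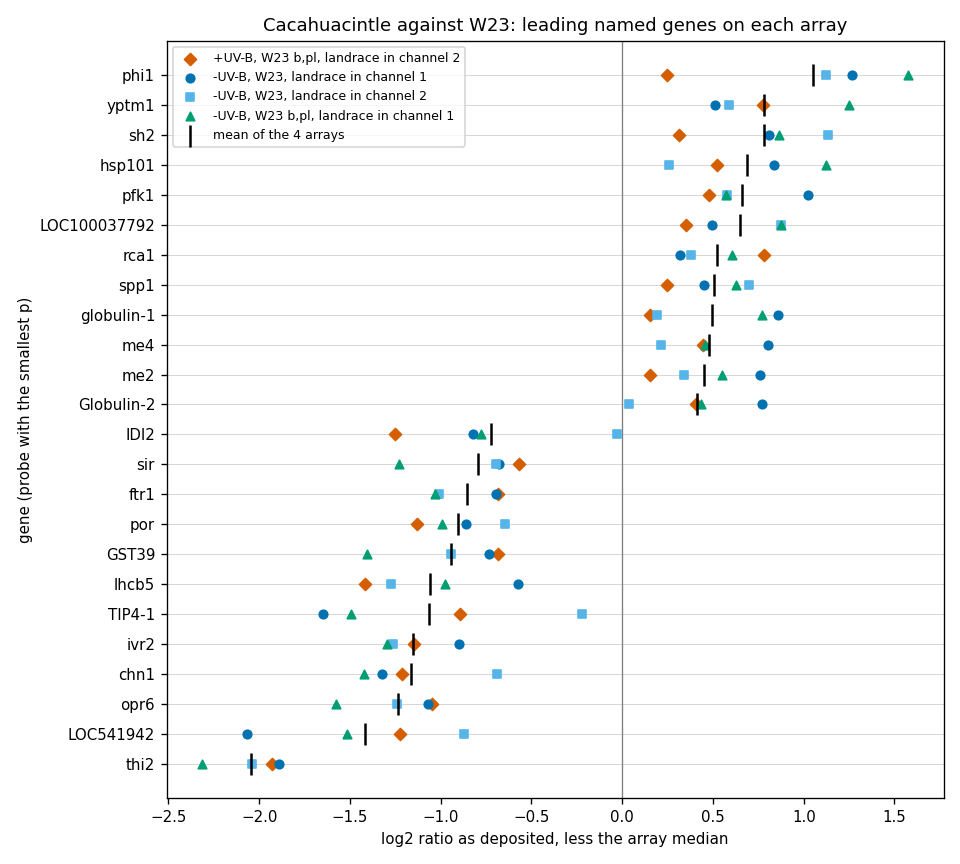
Log2 ratio less the array median on each of the 4 Cacahuacintle arrays for the 12 named genes on each side with the largest mean among called probes with all arrays on 1 side. Symbols are the arrays and the black bar is their mean. thi2 lies between -2.31 and -1.89 on all arrays, while phi1 is at 0.24 on the +UV-B array and at 1.12 to 1.58 on the others.

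thi2, 1 of the maize genes for the enzyme that makes the thiazole part of thiamine (vitamin B1), had the named probe farthest from 0. Its value was -1.93 on the +UV-B array and -1.89, -2.04 and -2.31 on the first, the second and the third -UV-B arrays. The arrays lay close together and far on the negative side. The mean was -2.04 ± 0.19 (SD, n = 4 arrays), a ratio of 4.12 to 1, with a limma SE of 0.17 and an adjusted p of 5.97e-06, and the channel-order part was 0.06. A further probe of thi2 gave -1.01, -1.15, -1.33 and -1.45 in the same array order, with a mean of -1.24 (SE 0.11, adjusted p = 6.06e-06). The 2 remaining thi2 probes had means of 0.00 and -0.00 and were not called (adjusted p = 0.98 and 0.985), and both belong to the same cDNA clone, while the called probes are of different clones. thi1, its close relative, had a called probe at -0.40, -0.69, -0.08 and -0.62, with a mean of -0.45 (SE 0.13, adjusted p = 0.0329), and a second probe at 0.03 that was not called. The thi1 call was lost without the +UV-B array (mean -0.43, adjusted p = 0.114), the first -UV-B array (-0.40, 0.136) and the third (-0.42, 0.117). In all, 3 of the 6 probes of these 2 genes were called, all negative. Related genes can share signal on a cDNA probe, and how far they do was not tested.

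**Figure D3:**
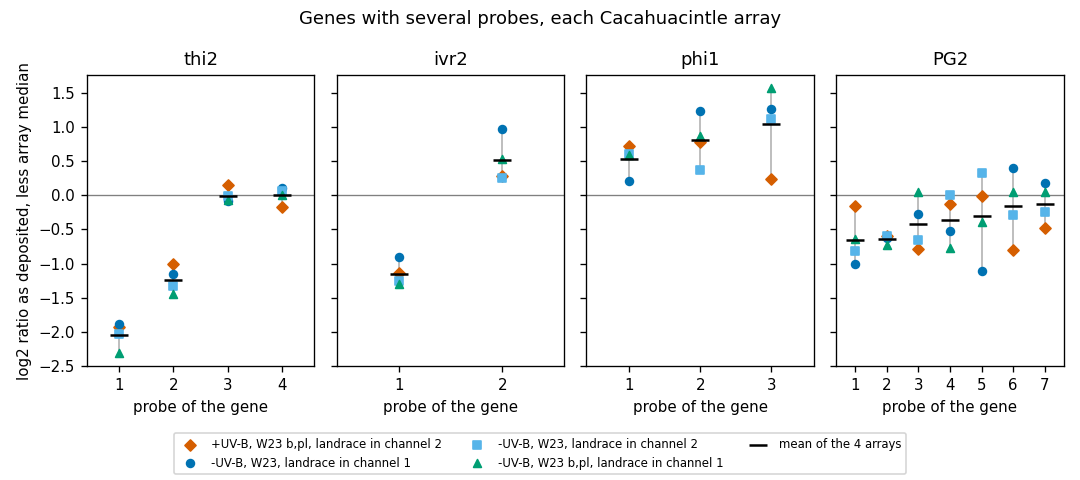
Log2 ratio less the array median on each of the 4 Cacahuacintle arrays for every probe of thi2, ivr2, phi1 and PG2, ordered by their mean, which is the black bar. Probes of thi2 lie near -2.04, -1.24 and 0, those of ivr2 lie on opposite sides, and the 3 of phi1 are all positive.

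Genes of sugar and starch metabolism were called in 6 of 16 cases, beside 53 of 310 (17.1%) of all named genes. By the probe with the smallest p, 5 were on the positive side and 1, ivr2, on the negative side. By probes it was 9 of 24, 8 positive and 1 negative, beside 14.0% of all probes. The list's median was 0.14 beside -0.02 for all probes tested. Without centring the list held 3 positive and 1 negative gene, with a median of 0.09 beside -0.07. phi1, which encodes phosphohexose isomerase of glycolysis, led the positive side. Its probe with the smallest p was at 0.24 on the +UV-B array and at 1.26, 1.12 and 1.58 on the -UV-B arrays. All 4 values were positive, and the +UV-B array was the lowest. The mean was 1.05 ± 0.57 (SE 0.18, adjusted p = 0.00127), and the channel-order part was -0.37. The other 2 phi1 probes were also called, with means of 0.81 (adjusted p = 0.00206) and 0.53 (adjusted p = 0.0075). On them the +UV-B array was not the lowest: it stood at 0.78 against 1.24, 0.37 and 0.87 on the former, and at 0.73 against 0.21, 0.61 and 0.59 on the latter.

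sh2, the large subunit of ADP-glucose pyrophosphorylase that commits glucose to starch, stood at 0.31 on the +UV-B array and at 0.81, 1.13 and 0.86 on the -UV-B arrays. Its mean was 0.78 ± 0.34 (SE 0.12, adjusted p = 0.000628). pfk1, a phosphofructokinase, was positive at 0.48, 1.02, 0.58 and 0.57 (mean 0.66, SE 0.14, adjusted p = 0.00611). spp1, the sucrose-phosphatase that makes sucrose, was at 0.25, 0.45, 0.70 and 0.63 (mean 0.51, SE 0.13, adjusted p = 0.0175). Its second probe, of the same cDNA clone, was at 0.31, 0.28, -0.29 and 0.36 (mean 0.17) and was not called. The call was thus not repeated on its own clone. The gene ae1, a starch branching enzyme named after its value was seen, had a mean of 0.29 (adjusted p = 0.0435). The pfk1 call was lost without the first -UV-B array (0.49, adjusted p = 0.0538), and that of spp1 without the second (0.43, 0.0745) and the third (0.47, 0.0861).

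ivr2, a vacuolar invertase that splits sucrose, had called probes on both sides, the one such case among 53 named genes with several tested probes. The probe with the smaller p gave -1.15, -0.90, -1.26 and -1.30, a mean of -1.15 ± 0.18 (SE 0.13, adjusted p = 5.47e-05). Its other probe gave 0.28, 0.97, 0.25 and 0.54, a mean of 0.51 (SE 0.14, adjusted p = 0.0289). Each probe kept its side on all 4 arrays, so no direction is given for the gene. In the counts of named genes, which use the probe with the smallest p, ivr2 stands on the negative side. Of the uncalled members, sus1, a sucrose synthase, had means of 0.25 and -0.07 on its 2 probes, and frk2, a fructokinase, had -0.25 on its tested probe.

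Genes of carbon fixation and the C4 pathway were called in 4 of 9 cases, 3 positive and 1 negative, beside 17.1% of all named genes. The list median was 0.17, and 0.08 with sections of the array centred, where the sugar list had 0.13. rca1, Rubisco activase, which keeps Rubisco active, was at 0.78 on the +UV-B array and at 0.32, 0.38 and 0.61 on the others. The mean was 0.52 ± 0.21 (SE 0.11, adjusted p = 0.00639). me4 and me2, NADP-malic enzymes that release CO2 from malate, had means of 0.48 (adjusted p = 0.0111) and 0.45 (adjusted p = 0.00621), with every array positive. pdrp1, the regulatory protein that switches pyruvate phosphate dikinase on and off, lay on the negative side at -1.16, -0.70, -0.18 and -0.30 (mean -0.59, SE 0.16, adjusted p = 0.0225). Its target pdk1, a marker of mesophyll, had a mean of 0.34 with all arrays positive and was not called (adjusted p = 0.16). ssu1, the small subunit of Rubisco and a marker of the bundle sheath, lay at 0.18, -0.08, 0.22 and -0.18, a mean of 0.03 ± 0.20 (adjusted p = 0.844).

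Within this group me2 kept its call without each array in turn, and lost it without centring (0.40, adjusted p = 0.0597). The call of rca1 was lost without the third -UV-B array (0.45, adjusted p = 0.0542). That of me4 was lost without the first (0.38, 0.0812) and, at the threshold itself, without the +UV-B array (0.47, 0.05). That of pdrp1 was lost without the +UV-B array (-0.41, 0.149), the first -UV-B array (-0.50, 0.11) and the third (-0.65, 0.0519).

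In the light reactions 2 of 8 genes were called, both negative, beside 34 of 310 negative among all named genes. The list median was -0.01, and with sections of the array centred it was 0.11, with 2 positive and 3 negative genes called. lhcb5, a minor antenna protein of photosystem II, stood at -1.42 on the +UV-B array and at -0.57, -1.27 and -0.98 on the -UV-B arrays. The 4 values were all negative and the 2 arrays with the landrace in channel 2 were the lower ones. Its mean was -1.06 ± 0.37 (SE 0.14, adjusted p = 0.000196). ftr1, a subunit of ferredoxin-thioredoxin reductase, which passes light-driven reduction on to enzymes of the chloroplast, was at -0.68, -0.70, -1.01 and -1.03. Its mean was -0.86 ± 0.19 (SE 0.11, adjusted p = 0.000233), and the channel-order part was 0.01. pgr5, which acts in cyclic electron flow, had all arrays positive with a mean of 0.45 and was not called (adjusted p = 0.1). With sections centred it was called at 0.65 (adjusted p = 0.00207).

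Defence and wounding genes were called in 4 of 10 cases, all negative, beside 34 of 310 negative among all named genes, and the list median of -0.30 was the lowest of the 17. opr6 belongs to the family of 12-oxo-phytodienoic acid reductases, some of which act in jasmonate synthesis. It was at -1.05 on the +UV-B array and at -1.07, -1.24 and -1.58 on the others, a mean of -1.24 ± 0.24 (SE 0.16, adjusted p = 0.000196). chn1, a chitinase, was at -1.22, -1.32, -0.69 and -1.42, a mean of -1.16 ± 0.33 (SE 0.13, adjusted p = 5.54e-05). These 2 genes had every array well on the negative side, and channel-order parts of 0.09 and 0.21. The other 2 called members were nearer 0 and had 1 array on the positive side each. cpi2, a cysteine protease inhibitor, had a mean of -0.33 (adjusted p = 0.0477), and hir1, named for the hypersensitive reaction, had -0.32 (adjusted p = 0.0429) on one probe and -0.03 on the other. cpi2 lost its call without any one of the arrays, with means of -0.41 to -0.23 and adjusted p of 0.0538 to 0.233. hir1 lost it likewise, with means of -0.38 to -0.23 and adjusted p of 0.054 to 0.219. With sections centred, the list held 3 negative calls and 1 positive, and without centring 2 negative calls. glu1, a beta-glucosidase, had 1 probe at 0.37 with all arrays positive (adjusted p = 0.0531) and 1 at -0.30.

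Antioxidant and detoxification genes were called in 3 of 12 cases, all negative, with a list median of -0.12. Among all named genes 17.1% were called, 34 of 310 on the negative side. GST39, a glutathione S-transferase, was at -0.68, -0.74, -0.94 and -1.40, a mean of -0.94 ± 0.33 (SE 0.15, adjusted p = 0.000837). fer1, the iron store ferritin, had a mean of -0.50 with all arrays negative (SE 0.12, adjusted p = 0.0119), and without the second -UV-B array it was at -0.42 (adjusted p = 0.0574). cat1, a catalase, was at -0.83, 0.23, -1.09 and -0.39, so the arrays with the landrace in channel 2 were lower and 1 array was positive. Its mean of -0.52 (adjusted p = 0.0294) lost the call without the +UV-B array (-0.53, 0.0852), the second -UV-B array (-0.44, 0.109) and the third (-0.45, 0.133).

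**Figure D4:**
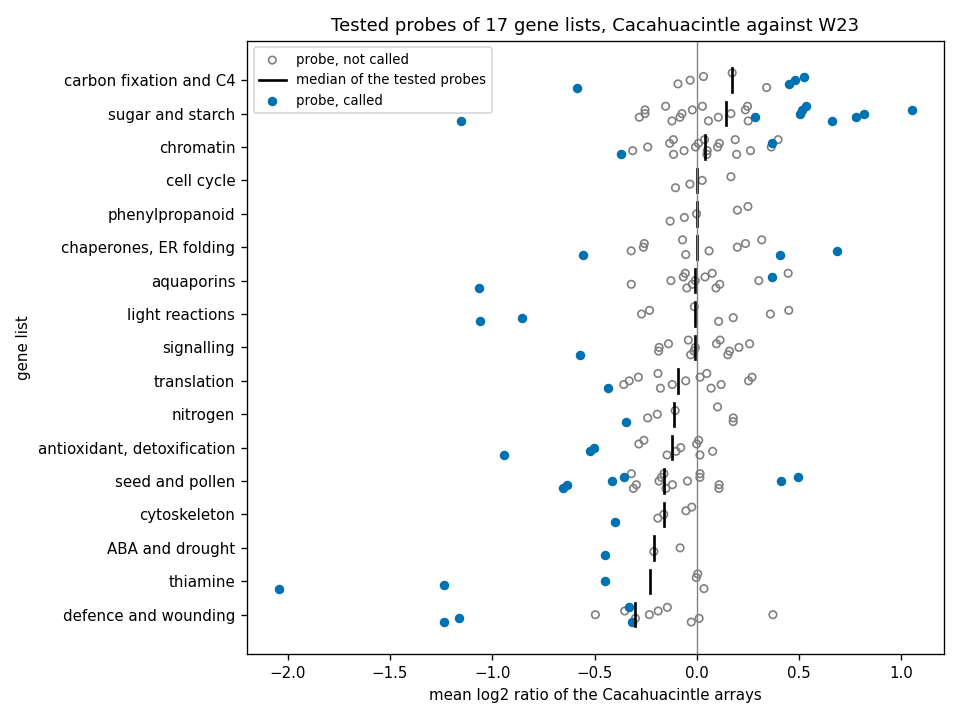
Mean log2 ratio over the Cacahuacintle arrays of each tested probe in 17 gene lists. Filled points are called probes, open points the others, and the black bar is the median of the list's tested probes. The lists run from a median of 0.17 for carbon fixation to -0.30 for defence and wounding.

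Among the other lists, heat shock and folding proteins were called in 3 of 10 cases, beside 17.1% of all named genes. hsp101, a chaperone that frees proteins from aggregates, was positive at 0.52, 0.83, 0.26 and 1.13, a mean of 0.69 ± 0.38 (SE 0.12, adjusted p = 0.00133). PDIL1-1, a protein disulfide isomerase of the endoplasmic reticulum, was negative at -0.42, -0.55, -0.52 and -0.74, a mean of -0.56 ± 0.13 (SE 0.11, adjusted p = 0.00348). derlin4, which acts in the disposal of misfolded proteins, had a mean of 0.41 (adjusted p = 0.0377), with 1 array just below 0. It lost the call without the +UV-B array (0.35, 0.161), the first -UV-B array (0.31, 0.188) and the third (0.42, 0.101).

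Of 11 aquaporin genes, which encode water channels, 2 were called, a share near the 17.1% of all named genes. TIP4-1, a channel of the vacuole membrane, was negative at -0.89, -1.65, -0.22 and -1.49, with the 2 arrays that have the landrace in channel 1 as the lower ones. The mean was -1.06 ± 0.65 (SE 0.16, adjusted p = 0.000514), and the channel-order part of 0.51 was the farthest from 0 among the leading genes plotted. TIP2-1 had a mean of 0.36 (adjusted p = 0.0446) on one probe and -0.05 on the other, and lost its call without any one of the arrays (0.27 to 0.44, adjusted p of 0.0515 to 0.204).

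For sulfur and nitrogen, sir, the sulfite reductase of sulfate assimilation, was at -0.57, -0.68, -0.69 and -1.23, a mean of -0.79 ± 0.29 (SE 0.10, adjusted p = 0.000129). NNR1, a nitrate reductase, had a mean of -0.35 with all arrays negative (adjusted p = 0.034), was the one called gene of 6 in the nitrogen list, and lost its call without any one of the arrays (-0.39 to -0.31, adjusted p of 0.0636 to 0.132). NIR, nitrite reductase, was at -0.24 on its tested probe and was not called (adjusted p = 0.141).

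Genes outside the lists included LOC541942, whose role is not given here. Its values were -1.22, -2.06, -0.87 and -1.51, a mean of -1.42 ± 0.50 (SE 0.14, adjusted p = 2.44e-05). yptm1, a small GTPase of membrane traffic, was positive at 0.78, 0.51, 0.59 and 1.25, a mean of 0.78 ± 0.33 (SE 0.21, adjusted p = 0.0209). It lost its call without the +UV-B array (0.69, 0.103), the second -UV-B array (0.76, 0.064) and the third (0.71, 0.0993). por and LOC100037792 had means of -0.91 (adjusted p = 0.00138) and 0.65 (adjusted p = 0.00156), with all arrays on 1 side. IDI2 had 1 called probe at -0.72 (adjusted p = 0.00593) and 2 uncalled ones at -0.20 and -0.01, and without the +UV-B array the first was at -0.51 (adjusted p = 0.0535).

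Chromatin genes were called in 2 of 17 cases and the lists for signalling, translation, the cytoskeleton and abscisic acid (ABA) in 1 case each, of 13, 12, 4 and 3, with 17.1% called among all named genes. The histone deacetylase Hda1 had a mean of 0.37 (adjusted p = 0.0226) on 1 of 2 probes, and the polycomb gene fie2 had -0.37 (adjusted p = 0.0167). Hda1 lost its call without the +UV-B array (0.37, 0.0712), the first (0.36, 0.0755) and the third (0.27, 0.138) of the -UV-B arrays. fie2 lost it without the +UV-B array (-0.33, 0.0894) and the third -UV-B array (-0.36, 0.0693). PP1, a protein phosphatase, was at -0.58, -0.98, 0.35 and -1.07 on its called probe (mean -0.57, adjusted p = 0.00544) and had a mean of -0.14 on another. Its call was lost without the channel term (-0.57, adjusted p = 0.141) and with the 4 arrays alone (-0.57, 0.0633), and its channel-order part was 0.45.

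EIF5, a translation initiation factor, was measured on 3 arrays, all negative (-0.09, -0.31 and -0.69, without the first -UV-B array), with a fitted value of -0.43 (adjusted p = 0.0291), and lost the call without the +UV-B array (-0.50, 0.053) or the second (-0.39, 0.0864) or the third -UV-B array (-0.39, 0.193). tub8, a beta-tubulin, had a mean of -0.40 (adjusted p = 0.0397) and lost it without any one array (-0.44 to -0.36, adjusted p of 0.0814 to 0.148). asr1, an ABA and stress gene, split by channel order, at 0.19 and 0.25 with the landrace in channel 2 and at -1.06 and -1.17 with it in channel 1. Its mean was -0.45 (adjusted p = 0.0399) and its channel-order part 0.67. The asr1 call was lost without the +UV-B array (-0.54, 0.0508), the first -UV-B array (-0.37, 0.178) and the third (-0.33, 0.193).

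No gene of the phenylpropanoid list, 4 tested, or of the cell cycle list, also 4 tested, was called by limma, and 1 and 0 of them had an unadjusted p under 0.05. PAL1, phenylalanine ammonia-lyase at the entry to phenolic compounds, lay at 0.29 on the +UV-B array and at 0.07, -0.27 and -0.10 on the others (mean -0.00 ± 0.24, adjusted p = 0.995). CCR, cinnamoyl-CoA reductase of lignin synthesis, had means of 0.25 and -0.13 on its 2 probes.

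Markers of seed and pollen were measured as well, since leaves should hold little of them. Of 7 genes, 3 were called, and of 19 probes 6, beside 17.1% of all named genes and 14.0% of all probes. globulin-1 and Globulin-2, storage proteins of the embryo, had called probes at 0.49 (adjusted p = 0.00383) and 0.41 (adjusted p = 0.0212), and second probes at -0.18 and 0.02. Without the channel term the globulin-1 probe was not called (0.49, adjusted p = 0.113), and its channel-order part was -0.32. The call of Globulin-2 was lost without the +UV-B array (0.36, 0.107), the first -UV-B array (0.33, 0.119) and, at the threshold, the third (0.46, 0.05). PG2, polygalacturonase of pollen, had 7 probes with means from -0.66 to -0.12, of which 4 were called. Its probe with the smallest p was at -0.60, -0.62, -0.59 and -0.73, a mean of -0.64 ± 0.07 (SE 0.12, adjusted p = 0.00301). The called PG2 probe at -0.66 belongs to the same cDNA clone, so the probe counts above hold that clone more than once. The polygalacturonase genes form a family of near copies, which these probes may not tell apart. What part such transcripts, or signal of other transcripts on these probes, had in the result was not tested.

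The difference of Cacahuacintle from the mean of Arrocillo and Conico was fitted on the same 12 arrays. All 3 landraces were set against W23, so they share that line, and their values are given side by side. In this test 1 of 5385 probes was called (0.0186%), while 371 had an unadjusted p under 0.05. The called probe, which starts at spot 4865 and has no name, was at 0.45 on the +UV-B array and at 0.62, 0.65 and 0.89 on the -UV-B arrays of Cacahuacintle. Its mean was 0.65 in Cacahuacintle, -0.21 in Arrocillo (range -0.37 to -0.07) and -0.31 in Conico (-0.51 to -0.14). The ranges did not overlap, but the test picked this probe out of 5385, so that is no separate evidence. The difference was 0.91 (SE 0.11, adjusted p = 0.00253). No named gene was called, and the smallest adjusted p of one was 0.574, with 26 of 378 named probes at an unadjusted p under 0.05. The called probe was called without each Cacahuacintle array as well, when 1, 2, 5 and 1 probes passed without the +UV-B array and the first, the second and the third -UV-B array.

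For the leading genes the values are given in the order Cacahuacintle, Arrocillo, Conico. thi2 stood at -2.04, -1.53 and -1.55 (difference -0.51, adjusted p = 0.675). opr6 stood at -1.24, -0.81 and -0.59 (difference -0.54, adjusted p = 0.655), and sh2 at 0.78, 0.42 and 0.37 (difference 0.38, adjusted p = 0.662). The other genes named here with a mean past 1 in size lay on the same side in every landrace. LOC541942 stood at -1.42, -1.28 and -1.48, chn1 at -1.16, -0.79 and -0.87, and TIP4-1 at -1.06, -0.60 and -0.78. lhcb5 stood at -1.06, -0.74 and -0.56. By their probes with the smallest p, ivr2 stood at -1.15, -0.98 and -0.84, and phi1 at 1.05, 1.29 and 0.96. LOC732772 had the difference farthest from 0 among named genes, at -0.64, 0.27 and -0.05 (difference -0.75, adjusted p = 0.574). Its Cacahuacintle mean alone was called (adjusted p = 0.0282), and not without the +UV-B array (-0.58, 0.117) or the first -UV-B array (-0.42, 0.185). cpi2 stood at -0.33, -0.72 and -0.82 (difference 0.44, adjusted p = 0.574), and CNX, the chaperone calnexin, at 0.32, -0.14 and -0.30 (difference 0.54, adjusted p = 0.703). The median SE of this difference was 0.143, and a p that misses the threshold does not show that the landraces are alike.

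Beside the 3 -UV-B arrays, the single +UV-B array lay outside their range in 2485 of 5269 probes (47.2%), above it in 1191 (22.6%) and below it in 1294 (24.6%). At any probe the highest and the lowest array both lie outside the range of the rest, so large shares follow from the count itself. The same count was higher for 2 of the -UV-B arrays taken as the odd one, at 59.6% for the first and 57.7% for the second, and it was 35.6% for the third. By distance, 124 probes on the +UV-B array differed by over 1 from the mean of the other arrays, against 282, 179 and 28 for the first, the second and the third -UV-B arrays. The +UV-B array thus stood no farther from the rest than did 2 of the -UV-B arrays.

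**Figure D5:**
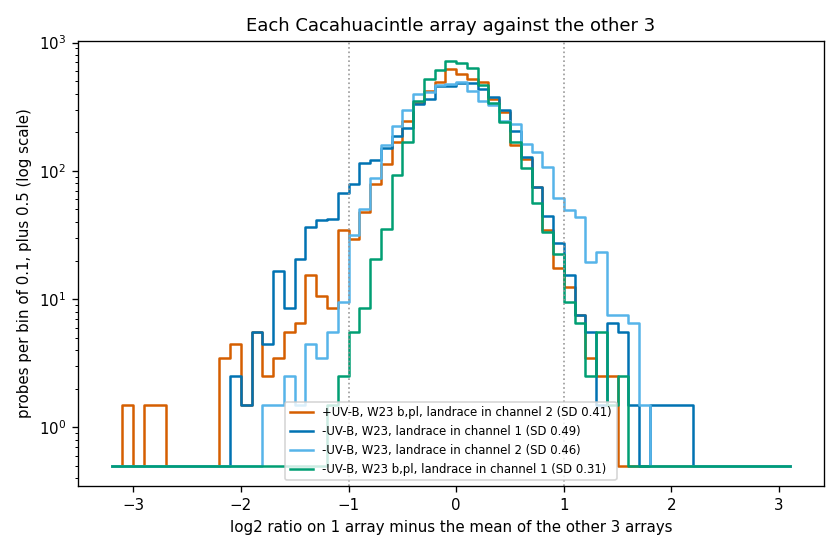
Number of probes (log scale) by the log2 ratio on 1 Cacahuacintle array minus the mean of the other 3, with a line for each array and dotted lines at 1 in each direction. The +UV-B array has an SD of 0.41, between the 0.31 of the third and the 0.46 and 0.49 of the second and first -UV-B arrays, and it has the longest negative tail.

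The fit with the channel order as a term called 1 of 5385 probes in the +UV-B array against the others (0.0186%), with the lone array assumed to vary like the rest, and 277 had an unadjusted p under 0.05. The called probe starts at spot 361 and has no name. It was at -2.84 on the +UV-B array, where its 3 spots ran from -3.31 to -2.53, and at 0.15, 0.33 and 0.21 on the -UV-B arrays. The fitted difference was -3.00 (SE 0.32, adjusted p = 0.00218), and the count was 5, 0 and 2 without the first, the second and the third -UV-B array, with 251 probes at an unadjusted p under 0.05 where limma called 0. The second is the array of the same channel order. No named gene was called, 15 named probes had an unadjusted p under 0.05, and the smallest adjusted p of one was 0.373, for a probe of EXPB9. This beta-expansin loosens cell walls and is known from pollen. That probe was at -1.03 on the +UV-B array against 0.28, 0.01 and 0.14, while the fitted differences of its other probes were -0.36 and 0.31.

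By size, the named genes farthest below the -UV-B arrays were LAC1, a laccase, at -1.22 against 1.39, 0.56 and 0.06, and MNB1b, an HMG-box chromatin protein, at -1.11 against 0.66, -0.43 and 0.42. The raw differences from the mean of the -UV-B arrays were -1.90 and -1.32. The fitted differences, which take the channel order into account, were -1.71 (SE 0.54, adjusted p = 0.565) and -0.76 (SE 0.49, adjusted p = 0.998). Those farthest above were LOC542310, at 0.58 against -1.71, -0.31 and 0.16, asr1, a probe of asn1, asparagine synthetase, and LOC542547. Their fitted differences were 0.78, 0.36, 0.20 and 0.41, each with an adjusted p of 0.998, and the raw differences of the last 3 were 0.85, 0.80 and 0.78. The second -UV-B array, of the same channel order, was at 0.25 beside 0.19 on the +UV-B array in asr1, at 0.40 beside 0.49 in asn1 and at 0.08 beside 0.14 in LOC542547. MNB1b likewise split by channel order, with both arrays that have the landrace in channel 2 negative and both others positive (channel-order part -0.66). With 1 array a treatment effect and an effect of that array cannot be told apart, and the +UV-B array is also 1 of the 2 with W23 b,pl. LOC542310 had a mean of 0.37 on the W23 b,pl arrays and of -1.01 on the W23 arrays. LAC1 had -0.58 and 0.98. The fitted differences between the stocks were 1.38 (SE 0.36, adjusted p = 0.684 in limma) and -1.56 (SE 0.48, adjusted p = 0.808).

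The 2 arrays with W23 b,pl and the 2 with W23 hold both channel orders each. The limma fit of their difference called 0 of 5385 probes (0%), with 260 at an unadjusted p under 0.05 and a smallest adjusted p of 0.0766. Leaving out any array leaves a stock with a single array. Without the third -UV-B array, the W23 b,pl side is the +UV-B array alone, so stock and treatment cannot be told apart there. The median SE of this difference was 0.233, against 0.116 for the mean over the 4 arrays and 0.295 for the +UV-B difference.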

How the data were processed

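The deposited table holds, per the file headers and labels, log2 ratios of 17296 spots on 12 two-colour arrays, and the scale was read from values on both sides of 0. The authors' background and normalization steps behind these ratios, and the direction of the ratios, were not given in the sources used here. A second table of the series was not used here. Each of 8 equal runs of spots was read as triplets, 16 spots outside them were left out, and the 3 spots of each of 5760 probes were averaged. Each array was centred on its median.

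limma 3.58.1 (R 4.3.3) fitted a coefficient for each landrace and a channel order term to all 12 arrays, for probes measured on at least 9 arrays and on at least 3 of Cacahuacintle, with Benjamini-Hochberg adjustment over all tested probes and a threshold of 0.05. The "-2" of the titles follows the channel order, so the replicate block and the channel term are the same term. No array was found deposited more than once. The script was tested on simulated data.

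Of 329 genes on named probes, 314 were found in the RefSeq table of Zm-B73-REFERENCE-NAM-5.0, which gave readable names for 198. A further 2 probes with several genes stayed unnamed. Genes were named by rule: the 12 largest called per side with all arrays on 1 side, up to 5 called and 2 uncalled of each of 17 lists, the 3 largest per side against the other landraces, the 4 largest per side on the +UV-B array, and 9 genes always named (thi2, lhcb5, rca1, ssu1, PAL1, opr6, chn1, ivr2, hsp101), each by its probe with the smallest p. The members, lists and rules were chosen with earlier results of these data known. Alternatives covered centring, sections, scaling, filters, the channel term, array weights, the arrays fitted and leaving out each array. Precision is limited by the number of arrays.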

Additional observations from a re-analysis of the deposited data

Results flagged for a closer look

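The deposited log2 ratio of a single probe differed between the arrays of the landraces by the test of the difference itself. For the unnamed probe that starts at spot 4865, the Cacahuacintle ratio exceeded the mean of Arrocillo and Conico by 0.91 (limma SE 0.11, adjusted p = 0.00253). Which line held more of the transcript is not known. All 4 Cacahuacintle arrays were positive, from 0.45 to 0.89, and both other landraces had all arrays negative. The test picked this probe out of 5385, so these values describe the call and do not test it again. The 3 spots of the probe agreed on each Cacahuacintle array, with the widest spread from 0.56 to 0.67. That agreement is within arrays and does not bear on the landraces. The probe was called in each alternative fit run for this difference.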

How the results depend on the processing

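The count of called probes in the Cacahuacintle mean was 756, and 481 with arrays scaled to equal spread, 474 with a coefficient for each landrace and treatment, 420 with the 4 arrays alone, and 397 past a mean of 0.5 in size (added after the data were seen). Without the channel term, which is the replicate block here, it was 406, and 28 named genes were called instead of 53. Named genes came to 33 with scaling, 29 with treatment coefficients and 30 with the 4 arrays alone. Leaving out each array gave 388 to 742 probes and 27 to 45 named genes. The sections centred gave 1085 probes and 70 named genes, a channel term for each landrace 915 and 58, and the probes of a gene averaged 44 named genes, 12 of them positive. The difference from the other landraces held 5 called probes with treatment coefficients, and 1 to 5 without each array. The +UV-B difference held 2 called probes without centring, 9 with sections centred and 3 with scaling, and 0 to 5 without each -UV-B array; where it held 0 in limma, 251 were at an unadjusted p under 0.05. The W23 b,pl difference held 2 with sections centred. The cause of these moves was not tested, and some of the fits used fewer arrays. The 42 called genes named by the rule were followed by their probe with the smallest p. Of these, 17 kept the call under every alternative fitted to single probes with the ratio as deposited. Among them were thi2, ivr2, chn1, opr6, lhcb5, ftr1, sir, phi1, sh2 and hsp101. Without each array 20 kept it, and with the 4 arrays alone 16 lost it. None of these probes changed side in those fits. The averaging of a gene's probes was counted over all named genes only, so its effect on each of the 42 is not given. With ratios read as following the channel order, the fit tests the channel-order part, which is a different quantity from the mean. In that fit 3 of the 42 were called (PP1, asr1 and globulin-1). Taken as channel 2 minus channel 1, which is a convention, 0 of these had the sign of their mean. With 4 arrays and no label of separate plants, a probe that was not called may still differ. The 5354 unnamed probes could not be read as genes.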

Other observations

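Among probes with no name, the one with the mean farthest on the positive side starts at spot 14968. It was at 2.19 on the +UV-B array and at 2.79, 0.41 and 1.40 on the first, the second and the third -UV-B arrays, a mean of 1.70 that the second array lay well below. On the negative side the probe at spot 15591 was steadier, at -1.91, -1.63, -2.00 and -1.89. It had means of -2.64 in Arrocillo and -1.62 in Conico, beside -1.86 in Cacahuacintle.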
